A study of Mus musculus with 6 samples.

Results

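In 2 dye-efflux fractions of mouse bone marrow stem cells, 41 genes were compared that belong to the branches of lipid metabolism: the enzymes of cholesterol synthesis, the regulators of the sterol-responsive transcription factors, the enzymes that make, desaturate, elongate and activate fatty acids, 1 enzyme of phospholipid synthesis, and the enzymes of mitochondrial fatty acid oxidation. The genes were chosen by name, and every probe set of the array whose only annotated gene symbol is one of them was taken, 89 of 45037 probe sets. Of the 41 genes, 39 had such a probe set. Acat2 and Acsl1 had none under these symbols and are not analysed here. Of the 6 arrays, at least 3 had to read over log2 4 for a probe set to be tested, which kept 67 probe sets of 38 genes, and left out Cpt2, the inner mitochondrial carnitine palmitoyltransferase, whose highest value was 2.83.

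The cells came from 10-week-old male C57Bl/6 (CD45.1) mice and were sorted as Lineage-negative, Sca-1-positive and c-Kit-positive cells of the side population, which pump out a DNA-binding dye, gated either on its lower end (Lower-SP) or on its upper end (Upper-SP). Both fractions carry all of these sort criteria and differ in the position of the side population gate. Per the labels, each fraction was sorted from 3 pools of mice on separate days, and RNA of each sort was amplified by in vitro transcription and hybridized to 1 array, so a value is an average over a pool. Values are log2 expression after GCRMA, and each difference is Lower-SP minus Upper-SP on that scale, with n = 3 arrays per fraction and with limma's standard error (SE) and adjusted p.

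Mammalian cells make cholesterol from acetyl-CoA through mevalonate, the isoprenoid farnesyl pyrophosphate, squalene and a series of sterol intermediates. The genes of this route are switched on by SREBP transcription factors, which the escort protein SCAP carries to the Golgi for cleavage when membrane sterol is low and which the INSIG proteins hold back in the endoplasmic reticulum when sterol is sufficient. Fatty acids are built by acetyl-CoA carboxylase and fatty acid synthase, then desaturated, elongated, bound to coenzyme A and either placed in membrane lipids or burned in mitochondria. In blood-forming stem cells, fatty acid oxidation is known for its part in stem cell maintenance.

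The arrays carried the markers of the sorted cells, with limits that touch the results below. All 11 stem cell markers with a probe set were tested, among them Procr, Mecom and Meis1, and Kit, Cd34, Flt3 and Abcg2 were lower in Lower-SP. Across probe sets, and as a description, r between 2 arrays of one fraction was 0.952 to 0.991 and r between arrays of different fractions was 0.911 to 0.938. Of 14 neutrophil markers with a probe set, 8 were tested, with 4 higher and 1 lower. Of all tested genes 7.05% were higher and 20.7% lower. Chil3 and Lcn2, among the higher ones, were tested through Lower-SP alone, so their passing is given as a description. The mean over the 14 was 7.41 and 6.97 on Lower-SP replicates 1 and 2, 4.88 on Lower-SP replicate 3 and 4.07 to 4.81 on the Upper-SP arrays, while Elane, Ctsg and Cxcr2 lay under log2 4 on every array. Of 15 tested mitosis markers 1, Tpx2, was higher, also tested through Lower-SP alone, and 0 were lower. The mean over the 19 with a probe set was 6.19, 5.95 and 5.30 in Lower-SP replicates 1 to 3 and 5.24 to 5.57 in Upper-SP. Single markers differed, as Plk1 and Cdk1 were highest on replicate 3 within Lower-SP. Of 9 plasma and B cell markers with a probe set 4 were tested, and 1, Igha, passed. Igha, an immunoglobulin heavy chain gene, read 9.40, 8.99 and 4.70 in Lower-SP and 12.43, 12.60 and 11.31 in Upper-SP (21.4-fold lower, adjusted p = 0.024), and Jchain did not pass (3.53-fold lower, adjusted p = 0.11). Cd79b and Ms4a1 had -0.37 and 0.42 without passing (adjusted p = 0.48 and 0.18). The mean over 9 plasma and B cell markers was 3.32 to 4.32 against 4.50 to 4.72. Of the 9, 5 lay under log2 4 on every array, among them the plasma cell genes Mzb1, Derl3 and Tnfrsf17. Of 3 tested macrophage and monocyte markers Csf1r was higher (2.08-fold, adjusted p = 0.023). Lyz2 and Cd14 had the opposite sign, -0.67 and -0.61, without passing (adjusted p = 0.058 and 0.17). The mean over the 7 with a probe set was 5.45 to 5.68 in Lower-SP and 5.56 to 5.95 in Upper-SP. Nkg7, the 1 tested T and NK cell marker, was lower (2.2-fold, adjusted p = 0.033). No erythroid, adipocyte or stromal marker passed, of 3 tested. The part of these cells in the lipid gene results was not tested. The fit without Lower-SP replicates 1 and 2 is also described for all lipid genes, all their probe sets and the wider list. In bulk RNA of this kind, fewer cells of a type and less RNA per cell cannot be told apart.

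Read through the brightest tested probe set of each gene, 8 of the 38 lipid genes were lower in Lower-SP, 2 were higher and 28 did not pass at an adjusted p of 0.05. The lowered genes were Fdps, Nsdhl and Sc5d of cholesterol synthesis, the regulators Scap and Insig1, the acyl-CoA synthetase Acsl5, and Acadvl and Hadha of fatty acid oxidation. The raised genes were Insig2 and Selenoi. The share that passed, 26.3%, lay near that of all 9460 tested genes, 27.7%, as did the share lowered, 21.1% against 20.7%, and the share raised, 5.26% against 7.05%. The median difference of the 38 genes was -0.28, against -0.24 over all tested genes. As a group, then, the lipid genes stood where other genes stood, and the results are those of single genes and steps. In 16 of the 38 genes every Lower-SP value lay below every Upper-SP value (32.3% of all tested genes did so), and in 2 genes every Lower-SP value lay above (13.4%), where 45.7% of all tested genes showed one or the other.

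The balance of directions moved with the scaling and with single arrays. With cyclic loess 3 of the lipid genes were lower and 2 higher (13.2% called, against 23.9% of all tested genes), with quantile normalization 5 and 2 (18.4% against 25.3%), and with median centring 6 and 2 (21.1% against 25.8%), while the median of all genes moved from -0.24 to -0.09, -0.15 and -0.15. Calls became fewer among all genes too when 1 of these arrays was omitted. Omitting Lower-SP replicate 1 left 3 lipid genes lower and 2 higher (13.2% called, against 17.9% of all tested genes), and omitting replicate 2 of that fraction left 2 and 2 (10.5% against 14.9%). Omitting Upper-SP replicate 1 left 1 lower and 1 higher (5.26% against 7.35%), and omitting its replicate 2 left 2 and 1 (7.89% against 12.5%). When the first pair of Lower-SP replicates, 1 and 2, was omitted, 0 were lower and 3 were higher (Selenoi, Fdft1 and Fads2), 7.89% against 12.7% of all tested genes, in a fit where Lower-SP replicate 3 stands alone and is assumed to vary like the Upper-SP arrays. At the level of single probe sets, 13 of 67 were lower (17.5% of all tested probe sets were) and 5 were higher (10.7%), against 28.1% of all tested probe sets called in either direction. Without Lower-SP replicates 1 and 2 fewer of the 67 probe sets passed, as among all tested genes. All 18 called probe sets kept their sign with quantile normalization, median centring and cyclic loess.

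**Figure D1:**
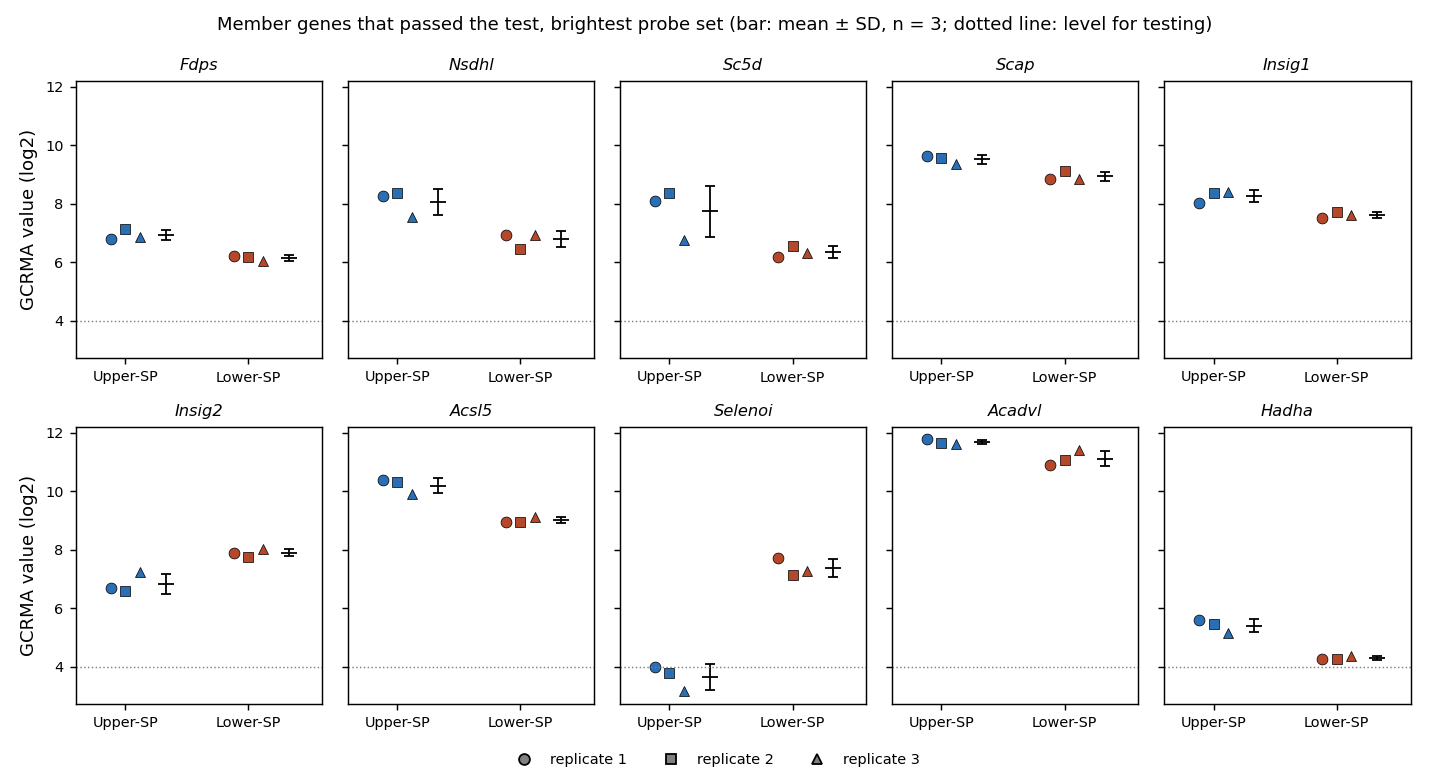
GCRMA values (log2, vertical axis) of the 10 lipid genes that passed, at the brightest probe set of each, on the 3 Upper-SP (blue) and 3 Lower-SP (red) arrays, with the symbol giving the replicate, the bar the mean ± SD (n = 3) and the dotted line the level for testing at log2 4. The groups do not overlap in any of the 10 genes, which were picked for passing (45.7% of all tested genes do not overlap). Selenoi, tested through Lower-SP alone, shows the widest gap, at 7.38 against 3.65.

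Among the 6 tested enzymes from acetyl-CoA to farnesyl pyrophosphate, 1 was lower (16.7%), the last, and 0 were higher. Of all tested genes 20.7% were lower and 7.05% higher. Fdps, farnesyl pyrophosphate synthase, read 6.22, 6.18 and 6.04 in Lower-SP and 6.81, 7.13 and 6.85 in Upper-SP. The Lower-SP values were close together and below all of Upper-SP, and Fdps fell by 0.78 (SE 0.21, adjusted p = 0.03). Without 1 array it did not pass in 4 of the 6 fits (Lower-SP replicate 1, adjusted p = 0.063, Lower-SP replicate 2, 0.074, Upper-SP replicate 1, 0.094, and Upper-SP replicate 2, 0.11), nor with cyclic loess (-0.65, 0.061). Mvk, mevalonate kinase, read 7.27, 7.47 and 6.67 against 8.61, 8.30 and 7.53, and Pmvk, phosphomevalonate kinase, 8.35, 7.89 and 8.5 against 8.99, 8.57 and 9.44. Neither pair of groups overlapped, with differences of -1.01 (SE 0.34, adjusted p = 0.057) and -0.76 (SE 0.27, adjusted p = 0.07). Mvd, which makes isopentenyl pyrophosphate, differed by -0.45 (adjusted p = 0.35) and Idi1, which isomerizes it, by -0.01 at its brightest probe set and -0.82 at another (adjusted p = 0.99 and 0.15). Hmgcs1, the synthase that supplies the pathway, had the opposite sign at each of its 4 tested probe sets (0.57, 0.40, 0.13 and 0.14) without passing. Its brightest read 12.02, 12.14 and 12.74 against 11.85, 11.22 and 12.13.

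The late sterol steps held the largest decreases of cholesterol synthesis. Nsdhl, which acts in the removal of methyl groups from the sterol ring, and Sc5d, which adds a ring double bond, fell at 3 probe sets, and Msmo1, a demethylation enzyme before Nsdhl, fell at 1 of its 2 tested probe sets. Of the 8 genes from squalene onward, 2 were lower at the brightest probe set (25%) and 0 higher. Of all tested genes 20.7% were lower and 7.05% higher. Nsdhl read 6.95, 6.47 and 6.94 in Lower-SP and 8.26, 8.36 and 7.56 in Upper-SP, and fell by 1.27 (SE 0.28, 2.42-fold, adjusted p = 0.015). Sc5d was lowered at both of its tested probe sets, by 1.39 (SE 0.41, adjusted p = 0.041) at the brighter, with 6.18, 6.58 and 6.32 against 8.09, 8.39 and 6.75, and by 1.98 (SE 0.42, 3.94-fold, adjusted p = 0.013) at the other. In Nsdhl and at both Sc5d probe sets Upper-SP replicate 3 was the lowest Upper-SP array. Msmo1 read 3.58, 3.40 and 3.89 in Lower-SP and 6.06, 5.71 and 5.46 in Upper-SP at a probe set that was tested through Upper-SP alone, and fell by 2.12 (SE 0.25, adjusted p = 0.0026), at least 3.34-fold with values under log2 4 set to 4. Its other tested probe set, the brighter, read 4.92, 4.98 and 5.54 against 4.87, 4.86 and 5.27 (difference 0.15, adjusted p = 0.69).

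The lowered Msmo1 probe set could enter the test only by being high in Upper-SP, so its passing is given as a description. From Lower-SP replicate 3 alone its difference was -1.85. Nsdhl did not pass without Lower-SP replicate 2 (adjusted p = 0.052), Upper-SP replicate 1 (0.078) or Upper-SP replicate 2 (0.061). The brighter Sc5d probe set passed only without Upper-SP replicate 3, and without each other array its adjusted p ran from 0.063 to 0.16. The other one did not pass without Upper-SP replicate 1 (0.07) or 2 (0.054). From Lower-SP replicate 3 alone the differences were -1.12 for Nsdhl and -1.43 and -2.16 for the Sc5d probe sets, close in size to those over all arrays, without passing (adjusted p = 0.11, 0.19 and 0.058).

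Of the remaining sterol genes, Sqle, squalene epoxidase, read 6.48, 6.04 and 7.0 against 7.45, 7.35 and 7.30 (difference -0.86, SE 0.28, adjusted p = 0.052), with no overlap. Lss, lanosterol synthase, had 5.69, 5.66 and 7.53 against 5.45, 6.30 and 5.72 at its brightest probe set (0.47, adjusted p = 0.53) and -0.79 at another (adjusted p = 0.071). Fdft1, squalene synthase, read 7.47, 7.20 and 8.46 against 7.23, 6.68 and 6.95 (0.75, adjusted p = 0.14). In both Lss and Fdft1 the high Lower-SP value was that of replicate 3. Cyp51, the lanosterol demethylase, differed by -0.19 and -0.48 at 2 probe sets, and Dhcr7, which makes cholesterol from its last precursor, by -0.15, none of them passing.

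The sequences before the transcription starts of 4 of these genes are shown because 3 of them, Msmo1, Nsdhl and Sc5d, carry the largest decreases of the route and Hmgcs1, at its head, had the opposite sign. They are the 250 bases upstream of each start in RefSeq (GRCm38.p6), 5′ to 3′ on the gene's strand, in lower case, with capitals for 2 motifs searched on both strands, the sterol regulatory element TCACNCCAC bound by SREBP and the CCAAT box bound by NF-Y, a factor that acts beside SREBP. The box reads ATTGG where it lies on the opposite strand.
Hmgcs1, chr13:119690101-119690350, plus strand: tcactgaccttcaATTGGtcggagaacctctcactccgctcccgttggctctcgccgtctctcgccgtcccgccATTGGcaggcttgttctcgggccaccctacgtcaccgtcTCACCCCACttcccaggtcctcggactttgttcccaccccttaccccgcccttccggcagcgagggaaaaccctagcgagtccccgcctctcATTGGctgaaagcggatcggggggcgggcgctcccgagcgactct
Msmo1, chr8:64733579-64733828, minus strand: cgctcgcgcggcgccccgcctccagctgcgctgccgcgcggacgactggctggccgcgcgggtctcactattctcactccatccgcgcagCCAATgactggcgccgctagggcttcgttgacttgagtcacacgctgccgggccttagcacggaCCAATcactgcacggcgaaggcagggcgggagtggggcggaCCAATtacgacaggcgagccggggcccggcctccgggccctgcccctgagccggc
Nsdhl, chrX:72918271-72918520, plus strand: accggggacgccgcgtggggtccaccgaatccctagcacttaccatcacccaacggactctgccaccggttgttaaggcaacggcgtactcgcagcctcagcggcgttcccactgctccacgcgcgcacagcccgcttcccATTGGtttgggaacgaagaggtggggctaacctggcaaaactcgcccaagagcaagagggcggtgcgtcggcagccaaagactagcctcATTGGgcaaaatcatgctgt
Sc5d, chr9:42264301-42264550, minus strand: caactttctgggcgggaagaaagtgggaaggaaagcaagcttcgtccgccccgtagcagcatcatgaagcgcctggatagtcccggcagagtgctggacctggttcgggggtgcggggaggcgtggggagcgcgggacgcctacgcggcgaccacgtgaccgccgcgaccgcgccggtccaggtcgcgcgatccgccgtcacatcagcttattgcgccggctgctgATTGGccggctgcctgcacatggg

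Windows of 300 bases (250 before and 50 after a start) were on hand for 35 of the 41 genes, and not for Fdps, Fdft1, Sqle, Scd1, Scd2 and Fads1. CCAAT, in either orientation, stood in a window of 11 of the 12 cholesterol synthesis genes that had one, Acat2 being the exception, and in 24 of the 44 windows of the 35 genes (54.5%). Of all 32851 windows 37.4% held it. The TCACNCCAC letters occurred in 2 of the 44 windows (4.55%), those of Hmgcs1 and Acsl1, against 1.24% of all windows. The box was not particular to Msmo1, Nsdhl and Sc5d. Hmgcs1, Idi1, Mvk and Cyp51, which passed at no tested probe set, hold CCAAT too. Of these Mvk had a difference of -1.01. The same windows held the Sp1 box GGGCGG in 31 of the 44 (70.5%, against 35.7% of all windows) and the palindromic E box CACGTG in 6 (13.6% against 7.15%). A match is a description of letters, and CCAAT can overlap its own reverse complement, as it does in Fasn.

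The 2 INSIG genes went opposite ways. Insig1, itself a target of SREBP, read 7.52, 7.72 and 7.62 in Lower-SP and 8.04, 8.39 and 8.42 in Upper-SP and fell by 0.66 (SE 0.19, 1.58-fold, adjusted p = 0.036). Insig2, its paralog with the same retention role, read 7.90, 7.76 and 8.02 against 6.69, 6.59 and 7.23 and rose by 1.06 (SE 0.24, 2.09-fold, adjusted p = 0.015). In both genes the fractions did not overlap. The other tested Insig2 probe sets had the same sign, 0.32 and 0.92, without passing (adjusted p = 0.31 and 0.22). Insig2 passed with each scaling but not without Upper-SP replicate 1 (0.99, adjusted p = 0.078) or 2 (0.94, 0.061). Insig1 passed in 1 of the 6 fits without 1 array, that without Lower-SP replicate 3, with adjusted p from 0.07 to 0.12 in the others, and with no other scaling (quantile 0.074, centring 0.071, cyclic loess 0.12).

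Scap, the SREBP escort, read 8.85, 9.11 and 8.85 against 9.65, 9.57 and 9.36 and fell by 0.59 (SE 0.16, adjusted p = 0.031), with -0.49 at a dimmer probe set that did not pass. Its call was lost with each other scaling (adjusted p = 0.052 to 0.12) and without Lower-SP replicate 1 (0.088) or 2 (0.052) or Upper-SP replicate 1 (0.14) or 2 (0.10). Srebf2, the SREBP of the cholesterol genes, read 7.32, 7.30 and 7.08 against 7.33, 7.47 and 6.75 at its brightest probe set, a difference of 0.05 that turned to -0.17 without Upper-SP replicate 3. A dimmer Srebf2 probe set read 5.14, 4.97 and 5.04 against 6.11, 6.00 and 5.56 and fell by 0.84 (SE 0.24, adjusted p = 0.033), a call kept with each scaling and lost without Lower-SP replicate 1 (0.067) or 2 (0.094) or Upper-SP replicate 1 (0.14) or 2 (0.11). Srebf1, the SREBP of fatty acid genes, differed by -0.24 (SE 0.14, adjusted p = 0.22) with 9.84, 9.79 and 9.96 against 10.23, 10.03 and 10.03. Its groups did not overlap.

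None of the 3 genes of fatty acid synthesis passed at its brightest probe set, against 27.7% of all tested genes. Fasn, fatty acid synthase, read 8.13, 7.97 and 8.03 against 8.89, 8.95 and 8.30 (difference -0.67, SE 0.22, adjusted p = 0.053), with no overlap. Acaca, acetyl-CoA carboxylase, read 7.39, 7.54 and 8.26 against 8.49, 8.42 and 8.04 (-0.59, SE 0.27, adjusted p = 0.14), where Lower-SP replicate 3 reached the Upper-SP range. Acly, which makes cytosolic acetyl-CoA from citrate, was the 1 lipid gene with probe sets called in both directions, of 21 with at least 2 tested (4.76%, against 3.51% of 4076 genes). Its brightest probe set read 12.87, 12.78 and 13.12 against 12.84, 12.95 and 13.32, a difference of -0.11 (adjusted p = 0.60) that was 0.04 with cyclic loess. A dimmer one, 1451666_at, read 6.20, 6.41 and 6.68 against 7.52, 7.32 and 7.39 and fell by 0.98 (SE 0.22, adjusted p = 0.016). Another, 1446315_at, read 4.94, 4.82 and 5.55 against 2.66, 3.60 and 4.21 and rose by 1.61 (SE 0.40, adjusted p = 0.023), at least 2.05-fold with values under log2 4 set to 4, where 1 Upper-SP value lay above that level. The lowered one did not pass without Upper-SP replicate 1 (0.083) or 2 (0.052), and lay at 0.05 without Lower-SP replicate 2. The raised one passed only without Lower-SP replicate 3 or Upper-SP replicate 3 (0.051 to 0.077 otherwise).

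**Figure D2:**
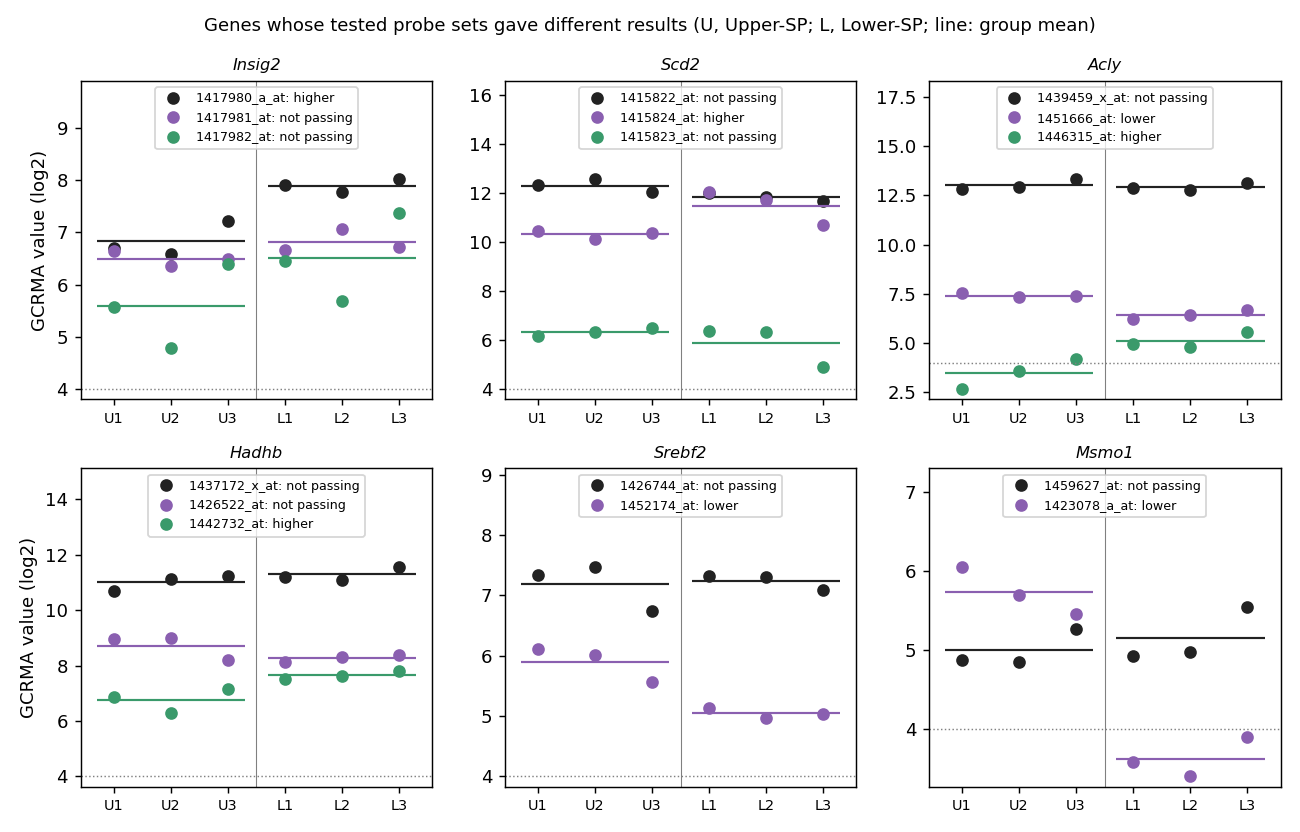
GCRMA values (log2, vertical axis) of the tested probe sets of 6 genes on each array (U1 to U3, Upper-SP, L1 to L3, Lower-SP), with a colour per probe set, a line at each group mean and a dotted line at log2 4. Acly has probe sets called lower, higher and not passing, and in Scd2, Hadhb, Srebf2, Msmo1 and Insig2 1 probe set passed beside others that did not.

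Desaturases and elongases showed no passing gene at the brightest probe set, of 6 tested, against 27.7% of all tested genes. Scd2, the stearoyl-CoA desaturase of most non-hepatic tissues, had 3 tested probe sets. The brightest read 12.03, 11.83 and 11.69 against 12.34, 12.58 and 12.04 (-0.47, SE 0.16, adjusted p = 0.062), with no overlap. The next read 12.04, 11.72 and 10.72 against 10.47, 10.14 and 10.40 and rose by 1.16 (SE 0.31, 2.23-fold, adjusted p = 0.03). This rise was led by Lower-SP replicates 1 and 2, and from Lower-SP replicate 3 alone it was 0.38 (adjusted p = 0.26). It passed in 1 of the 6 fits without 1 array, that without Lower-SP replicate 3 (1.55), with adjusted p from 0.066 to 0.098 in the others. Scd1, the hepatic and adipose form, lay near the level for testing, with 4.92, 4.74 and 6.17 against 4.89, 4.77 and 5.27 (adjusted p = 0.60).

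Elovl6, which elongates palmitate, had -0.45, -1.28 and -0.38 at 3 probe sets, of which the middle one passed by a small margin (7.16, 7.5 and 5.87 against 8.32, 8.06 and 7.98, adjusted p = 0.049) and did not with each other scaling (0.061 to 0.086) or without Lower-SP replicate 1 or any Upper-SP array (0.073 to 0.17). Here Lower-SP replicate 3 was the low array, and without it the difference was -0.79. Elovl5, an elongase of polyunsaturated fatty acids, differed by 0.15 and -0.33 at 2 probe sets, neither passing. Fads1, the delta-5 desaturase, read 9.35, 9.30 and 9.89 against 10.30, 10.29 and 9.73 (-0.59, adjusted p = 0.09). Fads2, the delta-6 desaturase, read 7.51, 7.94 and 9.34 against 7.93, 7.73 and 7.30, and 7.20, 7.42 and 9.01 against 7.17, 6.97 and 7.25 at a further probe set. Both Fads2 probe sets were high on Lower-SP replicate 3 alone and did not pass (adjusted p = 0.34 and 0.25). With Lower-SP replicate 3 as the only Lower-SP array, the brightest Fads2 probe set was 1.69 higher (adjusted p = 0.035).

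Acsl5, which activates long-chain fatty acids with coenzyme A, was the 1 of the 8 lowered genes that passed in all 6 fits without 1 array. It read 8.96, 8.95 and 9.12 in Lower-SP and 10.38, 10.31 and 9.89 in Upper-SP, and fell by 1.18 (SE 0.17, 2.27-fold, adjusted p = 0.0046). It passed with each scaling (-1.03, -1.09 and -0.97) and without any 1 array (-1.33 to -1.09), and gave -1.07 from Lower-SP replicate 3 alone (adjusted p = 0.054). Its paralogs did not pass. Acsl3, an endoplasmic reticulum and lipid droplet form, had -0.50 (SE 0.19, adjusted p = 0.086) and 0.09 at 2 probe sets, and Acsl4, which prefers arachidonate, had 0.43 and -0.74 (adjusted p = 0.22 and 0.17).

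Selenoi, the selenoprotein that transfers ethanolamine phosphate to diacylglycerol to form phosphatidylethanolamine, had the largest difference of the 38 genes. The probe set behind it, 1442069_at, read 7.73, 7.13 and 7.26 in Lower-SP and 4.0, 3.78 and 3.17 in Upper-SP, so that it was tested through Lower-SP alone, and its test is given as a description. It rose by 3.73 (SE 0.30, adjusted p = 0.001), at least 10.4-fold, with 3.49 to 3.90 without any 1 array and 3.61 from Lower-SP replicate 3 alone (adjusted p = 0.019). Another tested probe set read 6.23, 5.67 and 4.18 against 4.87, 4.15 and 4.14 (0.98, adjusted p = 0.18), where Lower-SP replicate 3 lay within the Upper-SP range. The 2 others were not tested, with 4.46, 3.48 and 3.90 against 3.29, 3.47 and 3.04, and with values of 2.79 to 3.66. The high signal in all Lower-SP arrays was thus seen at 1 of 4 probe sets.

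The genes before it in the same branch did not follow it at every probe set. Pcyt2, which makes CDP-ethanolamine, the substrate of Selenoi, read 8.06, 8.41 and 8.79 against 9.97, 10.03 and 8.99 and was lower (2.37-fold, adjusted p = 0.024), and Etnk1, the ethanolamine kinase, was lower at its brightest probe set (1.46-fold, adjusted p = 0.013). The other 2 tested Etnk1 probe sets had the opposite sign, 0.34 and 0.55, with every Lower-SP value above Upper-SP, and did not pass (adjusted p = 0.16 and 0.19). Pcyt2 and Etnk1 are named here after their values were seen. Cept1, which shares the activity of Selenoi, read 7.53, 7.69 and 6.81 against 7.68, 7.86 and 7.71 (adjusted p = 0.28). In the choline branch Pcyt1a rose at its brightest probe set (8.21, 7.83 and 7.60 against 6.13, 5.76 and 7.25, adjusted p = 0.026), while its other probe set had the opposite sign and did not pass (adjusted p = 0.23), and Pcyt1b read 3.86, 3.85 and 2.35 against 5.23, 4.92 and 4.35 (at least 1.78-fold lower, adjusted p = 0.04), tested through Upper-SP alone.

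Of the 6 tested genes of mitochondrial fatty acid oxidation, 2 were lower (33.3%) and 0 higher. Of all tested genes 20.7% were lower and 7.05% higher. Acadvl, which takes the first oxidation step of very long chains, read 10.88, 11.05 and 11.40 against 11.77, 11.66 and 11.61 and fell by 0.57 (SE 0.15, adjusted p = 0.027). Its call was lost with quantile normalization (-0.40, 0.081) and cyclic loess (-0.38, 0.092), without Lower-SP replicate 1 (0.077) or 2 (0.087), without Upper-SP replicate 1 (0.11) or 2 (0.078), and with Lower-SP replicate 3 alone (-0.28, 0.26). Hadha, the alpha subunit of the trifunctional protein that carries out the later steps, read 4.27, 4.26 and 4.38 against 5.60, 5.45 and 5.15 and fell by 1.10 (SE 0.21, 2.14-fold, adjusted p = 0.01). It passed with each scaling, but not without Upper-SP replicate 1 (-1.0, adjusted p = 0.059), and gave -1.03 from Lower-SP replicate 3 alone (0.075). All its Lower-SP values lay close to the level for testing.

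Hadhb, the beta subunit of the same protein, did not follow Hadha. Its 3 tested probe sets gave 0.27 (11.19, 11.10 and 11.57 against 10.68, 11.14 and 11.23, adjusted p = 0.31), -0.45 (8.14, 8.30 and 8.39 against 8.97, 9.0 and 8.19, adjusted p = 0.22) and 0.88. At the last, 1442732_at, Lower-SP read 7.51, 7.63 and 7.81 and Upper-SP 6.86, 6.30 and 7.15, and Hadhb rose (SE 0.26, adjusted p = 0.041), a call lost without any 1 array except Upper-SP replicate 3 (0.069 to 0.12). The genes are transcribed away from each other from starts 273 bases apart, and their 300-base windows share 228 bases. The 250 bases before the Hadha start in RefSeq (GRCm38.p6), which hold the 228 shared ones, are shown in lower case throughout because neither CCAAT nor TCACNCCAC was found in it.
Hadha, chr5:30154981-30155230, minus strand: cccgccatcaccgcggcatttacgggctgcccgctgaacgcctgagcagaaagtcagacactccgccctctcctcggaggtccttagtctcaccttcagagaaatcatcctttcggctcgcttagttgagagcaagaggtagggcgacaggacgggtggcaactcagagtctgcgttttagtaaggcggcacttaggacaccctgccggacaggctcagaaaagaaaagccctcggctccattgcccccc

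The remaining oxidation genes differed little. Acadm, the medium-chain dehydrogenase, read 8.29, 8.43 and 8.03 against 8.79, 8.44 and 8.52 (-0.33, SE 0.19, adjusted p = 0.23). Acadl, the long-chain dehydrogenase, read 10.74, 10.71 and 10.69 against 10.89, 10.74 and 10.69, with an SD of 0.03 in Lower-SP and 0.11 in Upper-SP and a difference of -0.06 (SE 0.12, adjusted p = 0.72) that was 0.14 with cyclic loess. Cpt1a, the gatekeeper that moves fatty acids toward mitochondria, had -0.05, 0.26 and 0.06 at 3 probe sets (adjusted p = 0.86, 0.46 and 0.86).

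**Figure D3:**
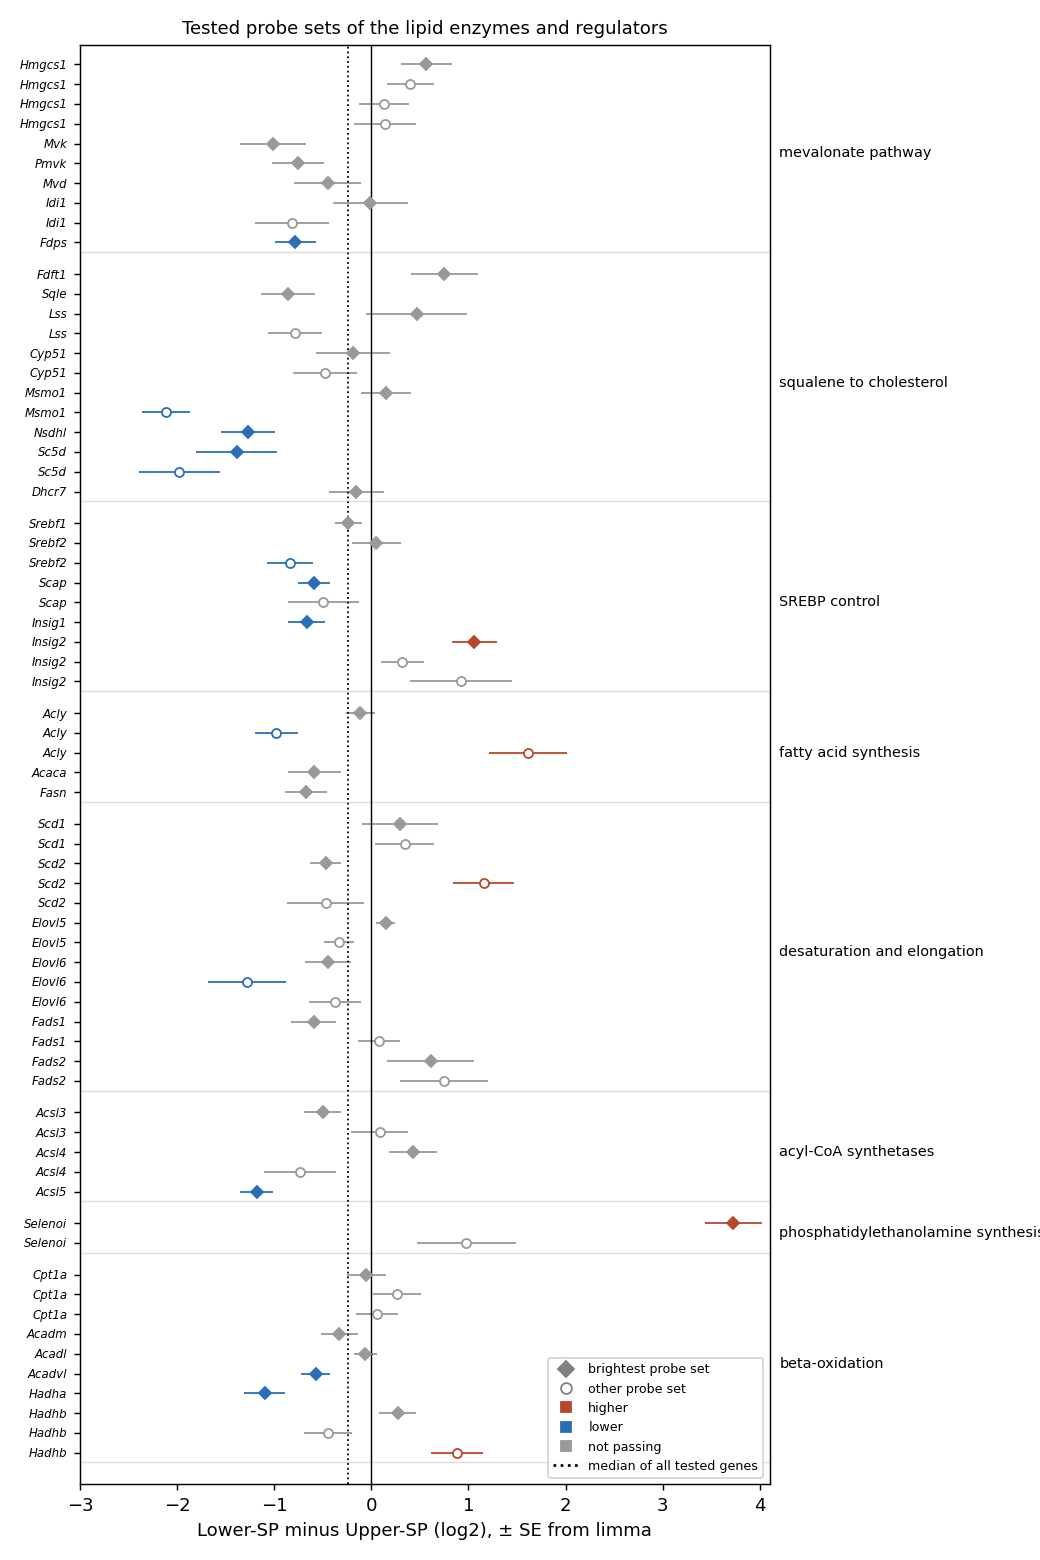
Lower-SP minus Upper-SP (log2, horizontal axis, bars ± SE from limma) for the 67 tested probe sets of the 38 lipid genes, by role, with filled diamonds for the brightest probe set of a gene, open circles for others, and colour for the call. The dotted line is the median of all tested genes, -0.24, and most probe sets lie within 1 log2 unit of it, with Selenoi at 3.73 and Msmo1 at -2.12 at the ends.

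A wider list of 130 lipid genes that are not among the 41 was read for comparison, and 89 of them were tested. Of these 21 were lower (23.6%) and 3 higher (3.37%), against 20.7% and 7.05% of all genes, with a median of -0.36. Without Lower-SP replicates 1 and 2, which leaves 1 Lower-SP array, fewer genes of the wider list passed, as among all tested genes. Of 20 tested genes of fatty acid oxidation 7 were lower, 0 were higher and 13 did not pass. The share lowered was 35%, against 20.7% of all tested genes. The largest passing decreases at a brightest probe set were those of 2 genes. They were Acad11 (1.19 lower, 2.28-fold, adjusted p = 0.0092), an acyl-CoA dehydrogenase, and Acaa2, the mitochondrial thiolase (2.12-fold, adjusted p = 0.009, and 3.4-fold at a dimmer probe set). Ppargc1a, a regulator in this class, had the opposite sign at each tested probe set, 0.57 to 1.58, without passing (adjusted p = 0.068 to 0.34). Among 11 other genes of fatty acid synthesis and elongation 3 were lower (27.3%, against 20.7% of all tested genes) and 0 higher. The lowered ones included Hsd17b12, the ketoacyl reductase of elongation (7.90, 8.31 and 8.20 against 9.70, 9.67 and 9.49, 2.79-fold, adjusted p = 0.0027), and Tecr, a later reductase of the same cycle (1.85-fold, adjusted p = 0.025). In the same class Elovl7, an elongase, was higher at a dimmer probe set (6.01, 6.43 and 7.07 against 4.33, 4.54 and 3.87, 4.79-fold, adjusted p = 0.0044), while its brightest did not pass (1.06, adjusted p = 0.16). Of 26 other phospholipid genes 7 were lower (26.9%, against 20.7% of all tested genes) and 3 higher (11.5% against 7.05%).

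In the smaller classes of the wider list, Pnpla2, the main triglyceride lipase, fell 2.35-fold (9.68, 9.41 and 9.71 against 10.97, 10.98 and 10.54, adjusted p = 0.0039). Dgat1, which completes triglyceride synthesis, was lower (1.47-fold, adjusted p = 0.037, with 1 value shared by the groups). These were 2 of 5 tested in that class (40%, against 20.7% of all tested genes). Of 11 other sterol genes 1 passed at the brightest probe set, 9.09% lower against 20.7% of all tested genes. This was Lbr, a sterol reductase of the nuclear envelope (1.74-fold lower, adjusted p = 0.021). Npc2 was lower at dimmer probe sets (adjusted p = 0.0053 and 0.0089), as was Acat1 (0.039). Their brightest did not pass (-0.33 for Npc2 and 0.26 for Acat1, adjusted p = 0.072 and 0.10). A further Npc2 probe set had 0.71 without passing (0.29). Of 5 SREBP processing genes 1 passed at the brightest probe set, 20% lower against 20.7% of all tested genes. This was Vcp, which extracts proteins for degradation (1.31-fold lower, adjusted p = 0.047). Mbtps1, the site-1 protease that cleaves SREBP, was higher at a dimmer probe set (6.35, 6.09 and 8.68 against 4.58, 2.90 and 5.02, 7.3-fold, adjusted p = 0.029), while its brightest gave 0.03 (adjusted p = 0.94). Elovl7, Mbtps1, Ppargc1a, Npc2 and Acat1 are named after their values were seen. None of 5 sterol export genes and none of 6 genes of fatty acid uptake passed by limma, against 27.7% of all tested genes. At an unadjusted p under 0.05 were 0 of either, against 3965 of all 9460 tested genes. With so few genes in a class, these counts are given as a description.

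Within Lower-SP the 3 arrays did not read the lipid genes alike. Replicate 3 was the highest Lower-SP array in 23 of the 38 genes (60.5%, against 46.8% of all tested genes), and replicate 2 was the lowest in 22 (57.9%, against 37.9%). The 8 genes from squalene onward averaged 6.41, 6.39 and 7.07 in Lower-SP replicates 1 to 3 and 7.01, 7.09 and 6.70 in Upper-SP, so that replicate 3 lay in the Upper-SP range. The 6 desaturase and elongase genes averaged 8.94, 8.89 and 9.52 against 9.30, 9.23 and 9.03, with replicate 3 above all Upper-SP arrays. Oxidation genes, at 8.93, 8.92 and 9.07 against 9.30, 9.25 and 9.28, kept all Lower-SP arrays below Upper-SP. This was not particular to them, since all tested genes averaged 7.75, 7.72 and 7.79 against 8.03, 7.97 and 7.89. The mevalonate, SREBP control, fatty acid synthesis and acyl-CoA synthetase genes also had every Lower-SP mean below Upper-SP. Replicates 1 and 2 are the arrays with the highest means of the neutrophil and mitosis markers, and the part of those cells in this split was not tested.

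**Figure D4:**
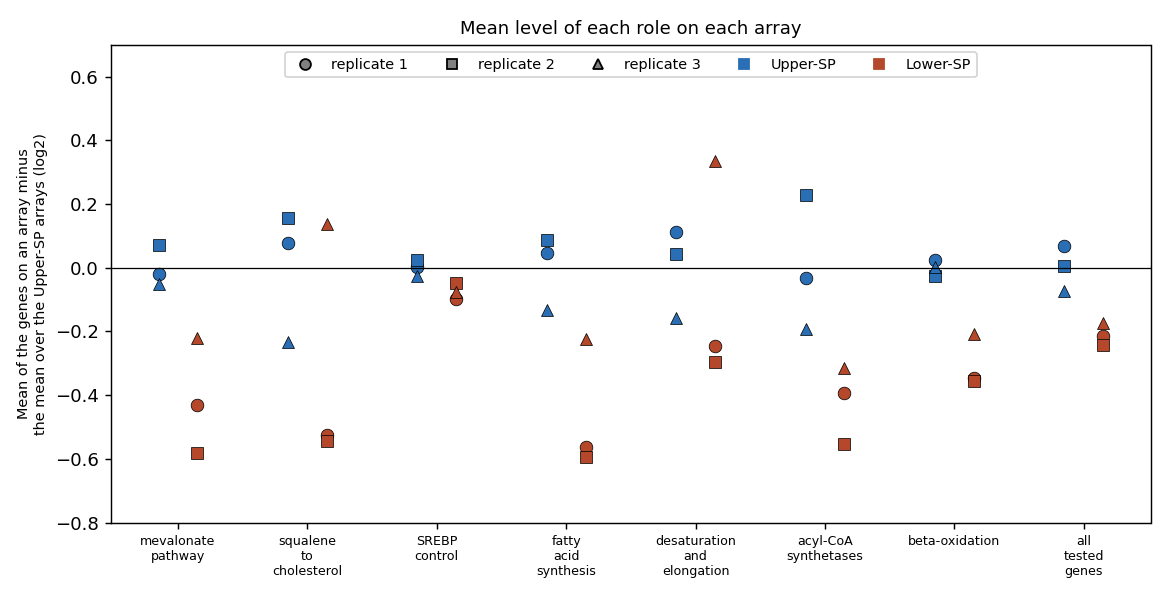
Mean log2 level of the genes of each role on each array, minus its mean over the 3 Upper-SP arrays (vertical axis, log2), for 7 roles and all tested genes, with colour for the fraction and symbol for the replicate. Lower-SP replicate 3 (red triangle) stands within or above the Upper-SP arrays for the genes from squalene to cholesterol and of desaturation and elongation, and Lower-SP replicates 1 and 2 lie below them.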

How the data were processed

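Gene expression was measured in sorted Lower-SP and Upper-SP stem cells on 3 arrays each. Per the labels, the deposited values are log2 expression from GCRMA, with GCOS 1.0 for the scan, per the submitters' processing notes. Parameters and genome build are not given in the sources used here. Of 45037 probe sets, after 64 controls were left out, 34945 had 1 gene symbol, 932 several and 9160 none in the array annotation. Probe sets above log2 4 on at least 3 of 6 arrays were tested (19613, of which 16054 had 1 symbol and represent 9460 genes) in R 4.3.3 with limma 3.58.1 (lmFit, eBayes with trend, residual df 4, prior df 3.80, two-sided), with Benjamini-Hochberg adjustment over all tested probe sets and calls at 0.05. The brightest tested probe set stood for a gene, and all probe sets of the 41 genes were read. From the wider list, up to 2 passing genes per class with the largest change are named. The fit was tested on simulated data. The alternatives were other filters, scalings, variance priors, array weights, kinds and choices of probe set, a 2-fold minimum, a replicate block and omitted arrays. Array number limits precision, as no read depth exists. The genes and lists were chosen with earlier results of these data known. Some genes of the wider list and of the marker lists had no probe set under their symbol and were not analysed here. Promoter windows are from RefSeq, GRCm38.p6. The 3 sorts of a fraction are separate pools, and p-values measure the spread between them.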

Additional observations from a re-analysis of the deposited data

How the results depend on the processing

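Of 800 differences of the 38 genes recomputed under the alternatives, 643 kept direction and side of the threshold, 66 no longer passed, 36 newly passed and 55, in 16 genes, changed sign; none of these 16 is among the 10 genes called at the brightest probe set. The causes were not tested. Lipid genes called lower, 8 of 38, numbered 3 of 39 without a filter (7.24% of all genes were called in either direction, against 27.7%), 5 with quantile normalization (25.3%), 3 with cyclic loess (23.9%), 18 with array weights (55.7%), 4 with a 2-fold minimum (13.1%), 0 without Lower-SP replicates 1 and 2 (12.7%), and 1 to 11 without 1 array. Those called higher, 2, numbered 4 with array weights, 1 with the mean over probe sets, 1 with the second brightest probe set, and 1 to 2 without 1 array. RefSeq mRNA probe sets alone covered 9 of the 38 genes and 0 of the 10 called ones, so this setting bears on none of those calls; there 1 was lower (Sqle, adjusted p = 0.048) and 0 higher. With the replicate number as a block, 6 were lower and 2 higher. Fdps, Scap, Insig1 and Acadvl no longer passed and Mvk and Pmvk did. The r of same-numbered deviations was -0.051, -0.029 and -0.023, and no array correlated best with its own number. These r cannot tell whether same-numbered arrays share a pool or day, so the block fit is given as an alternative. In the wider list, lowered genes, 21 of 89, numbered 12 without a filter, 13 with cyclic loess, 46 with array weights, 8 of only 23 tested with RefSeq mRNA probe sets alone, 7 with a 2-fold minimum, 8 without Lower-SP replicates 1 and 2, and 4 to 29 without 1 array. Raised genes, 3, numbered 6 with quantile normalization, 6 with centring, 6 with cyclic loess, 7 with array weights, 1 of the 23 with RefSeq mRNA probe sets alone, and 1 to 4 without 1 array.

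Changed signs by quantile normalization, centring and cyclic loess were 0.101, 0.078 and 0.176 for Idi1, 0.046, 0.035 and 0.141 for Cpt1a, and 0.080, 0.026 and 0.144 for Acadl, and by quantile normalization and cyclic loess 0.005 and 0.039 for Acly. Array weights gave 0.140 for Idi1 and -0.036 for Srebf2. The mean over probe sets gave -0.160 for Lss, -0.983 for Msmo1, -0.394 for Srebf2, 0.174 for Acly, 0.073 for Scd2, -0.092 for Elovl5, -0.154 for Acsl4 and 0.090 for Cpt1a. The second brightest probe set gave -0.787 for Lss, -2.117 for Msmo1, -0.840 for Srebf2, 1.157 for Scd2, -0.333 for Elovl5, 0.082 for Fads1, 0.086 for Acsl3, -0.736 for Acsl4, 0.264 for Cpt1a and -0.445 for Hadhb. Dropping cross-hybridizing probe sets gave -0.333 for Elovl5 (as did RefSeq mRNA probe sets alone), 0.086 for Acsl3, 0.264 for Cpt1a and -0.445 for Hadhb. Without Lower-SP replicates 1 and 2 the values were 0.715 for Idi1, 0.509 for Cyp51, -0.102 for Srebf2, 0.084 for Acly and 0.108 for Cpt1a. Without 1 array, values ran from -0.373 to 0.293 for Idi1, -0.152 to 0.785 for Lss, -0.534 to 0.072 for Cyp51, -0.045 to 0.287 for Msmo1, -0.421 to 0.039 for Dhcr7, -0.167 to 0.198 for Srebf2, -0.21 to 0.030 for Acly, -0.147 to 0.568 for Scd1 and -0.133 to 0.077 for Cpt1a. Signal near log2 4 limits Hadha, Scd1, Selenoi and Msmo1.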
